A study of Sus scrofa with 18 samples.

Results

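This account covers ssc-miR-101 (miR-101), known for its targeting of the EZH2 transcript, in backfat of Italian Large White pigs. Its rows were those of the deposited variant table whose mature miRNA bore that name, bare or with an arm suffix. They made up 1 of the 240 mature miRNAs and 354 of the 17623 sequence forms listed, each sequence counted once per mature miRNA. The companion EZH2-targeting miRNAs ssc-miR-26a and miR-26b were not analysed here. Small RNA was sequenced from frozen backfat of 18 pigs, 9 of the high and 9 of the low class of backfat deposition. The high backfat group held 5 castrated males and 4 females aged 235 to 250 days, and the low backfat group 4 castrated males and 5 females aged 233 to 249 days. All weighed between 150 and 160 kg and shared housing and feed, and the labels name no other treatment. Each library came from 1 animal, so p-values measure the spread between animals.

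EZH2 is the catalytic subunit of Polycomb repressive complex 2, which places the repressive H3K27 methyl mark and is known in mouse to promote fat cell formation by silencing Wnt genes. A miRNA finds its targets mainly through its seed, the bases that follow its first base, so a form that starts 1 base away carries another seed. miR-101 is known in human cells to repress EZH2 by binding its transcript. The 3' end of a miRNA can be trimmed, or extended with bases that its hairpin does not hold, while the seed stays as it was.

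The pig has a pair of miR-101 hairpins. Their letters around the annotated 21-base sequence, rebuilt from the deposited forms that match them throughout, are shown because every comparison of forms rests on them, with the annotated sequence in capitals.
mir-101-1: gTACAGTACTGTGATAACTGAAgaa
mir-101-2: gTACAGTACTGTGATAACTGAAgg
The annotated sequence ran from base 85 to 105 of the extended mir-101-1 precursor and from base 80 to 100 of the extended mir-101-2 precursor, in the table's own positions. In the Sscrofa11.1 annotation, MIR101-1 lies within the span of RCL1 and MIR101-2 within that of JAK1. Of the 354 forms, 333 were listed under both hairpins, 18 under mir-101-1 alone and 3 under mir-101-2 alone, with 36319 and 348 of the 1865863 miR-101 counts under those 2 headings. The hairpins therefore could not be told apart for most counts, and no form was shared with another miRNA.

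The forms on which the results turn are shown next. In the first 5, capitals mark bases at the 3' end that do not match the hairpins, and forms with no capitals match throughout.
CT form, the most abundant: tacagtactgtgataactgaCT
Added U: tacagtactgtgataactgaaT
CC form: tacagtactgtgataactgaCC
One base longer: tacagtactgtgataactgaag
Added A: tacagtactgtgataactgaaA
In the next 4, capitals mark the seed, bases 2 to 8, of the annotated form, of the most abundant form that starts 1 base upstream, and of 2 other miRNAs in the table.
Annotated form: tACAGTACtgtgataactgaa
Upstream start: gTACAGTActgtgataactga
miR-144: tACAGTATagatgatgtac
miR-199b-3p: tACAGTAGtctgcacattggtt
Bases 2 to 7 of annotated miR-101 were shared with annotated miR-144, a red blood cell miRNA, and annotated miR-199b-3p, a mesenchymal one. On average 59.1% of miR-199b-3p counts and 2.60% of miR-144 counts began at another base than the annotated one. The full seed was shared with no other annotated sequence listed, and the seed of the upstream start with none either. The letters are those of the table, which writes T for U.

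Library totals ran from 9601510 to 34588252 counts with a median of 20674716. Summed fat-tissue markers (miR-143-3p, miR-148a-3p, miR-378 and miR-103) ran from 152298 to 314991 counts per 1000000 (CPM) in high and from 221712 to 317044 CPM in low backfat libraries. In this bulk tissue, fewer cells of a type and less RNA per cell cannot be told apart.

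miR-101 was an abundant miRNA of this fat. Its mean CPM ranked 27 of 221 miRNAs tested, and its rank in a single library lay between 22 and 43. It took 38758 to 219696 counts per library, or 0.207% to 0.635% of all counts.

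In high backfat libraries, miR-101 ran from 1499 CPM through a median of 3974 to 5976 CPM, against 3426, 5479 and 6529 CPM in low backfat libraries. The groups overlapped, but 8 of the 9 high values lay below the low median, and the highest high value came from a castrated male, replicate 9. Means were 4004 ± 1199 CPM in high and 5459 ± 870 CPM in low backfat (SD, n = 9 each). The log2 fold change was -0.47 ± 0.18 (SE), with an adjusted p of 0.15 by edgeR's quasi-likelihood test over 221 miRNAs, so it was not called. In that comparison 3.62% of miRNAs were called. Without high replicate 6, the library at 1499 CPM, the log2 fold change was -0.32.

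**Figure D1:**
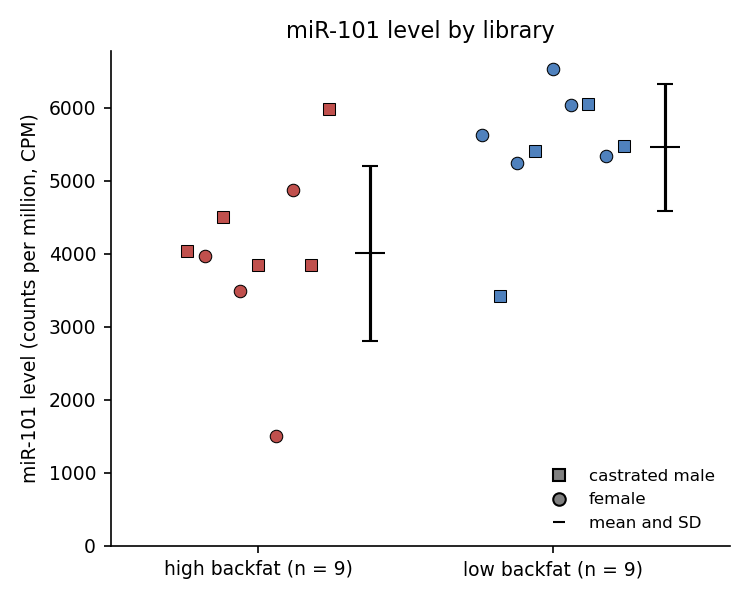
miR-101 level in counts per 1000000 (CPM) in each library, by backfat class, with squares for castrated males, circles for females, and bars for the mean and SD. Most high backfat libraries lie below the low backfat median of 5479 CPM, with replicate 6 at 1499 CPM and low replicate 2 at 3426 CPM standing below their own groups.

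Among markers of other cell types, only the mesenchymal list held called miRNAs. Over all 221 miRNAs tested, 3.62% were called and 118 were lower in high backfat. The red blood cell, white blood cell, epithelial and liver lists had 0 called. The summed mesenchymal markers (miR-199a-3p, miR-199a-5p, miR-214 and miR-145-5p) ran from 6863 to 9624 CPM in high and from 9109 to 13343 CPM in low backfat libraries, with all 4 lower in high backfat and 2 of them called. Endothelial markers (miR-126-3p and miR-126-5p) ran from 11299 through a median of 32836 to 41511 CPM in high and from 24788 through 29224 to 37694 CPM in low backfat libraries, with 1 of the 2 lower in high backfat and 0 called. The summed skeletal muscle markers (4 of 5 tested) ran from 48.0 through a median of 65.2 to 129 CPM in high and from 78.4 through 140 to 210 CPM in low backfat libraries, with all 4 lower in high backfat and 0 called. Over 18 libraries and 8 marker lists, the log2 mesenchymal sum had a Pearson r of 0.62 with the log2 miR-101 level (adjusted permutation p = 0.0156) and a Spearman rho of 0.59 (adjusted permutation p = 0.0966), with r = 0.55 without high replicate 6 and low replicate 2. The fat-tissue sum had r = 0.76 (adjusted permutation p = 0.0156) and rho = 0.53 (adjusted permutation p = 0.098), with r = 0.46 without those libraries. The endothelial sum had r = 0.71 (adjusted permutation p = 0.0593) and rho = 0.20 (adjusted permutation p = 0.476), and that r rested on those libraries, since it was -0.00017 without them. The muscle sum had r = 0.22 (adjusted permutation p = 0.545) and rho = 0.42 (adjusted permutation p = 0.172), with r = 0.44 without those libraries. Centred on run, with high replicate 6 and low replicate 2 kept, r was 0.62 (mesenchymal), 0.82 (fat tissue), 0.76 (endothelial) and 0.19 (muscle). None of these relations was centred on backfat class. The miR-101 level and the mesenchymal sum both had lower medians in high backfat, so their relation cannot be told apart from class. High replicate 6 was the lowest library for the mesenchymal, endothelial and fat-tissue sums. Their part in the miR-101 level was not tested.

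Within runs of library codes, the only batch-like label, the high-minus-low difference of mean log2 CPM was 0.09 (1 high, 3 low) in AC485-AC488, -0.43 (2 and 2) in U074-U077, -0.96 (4 and 2) in U134-U139 and -0.13 (2 and 2) in U966-U969. The direction was thus shared by 3 of the 4 runs.

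In females the ranges of the groups did not overlap, but how many other miRNAs did the same was not counted. High backfat females had 1499 to 4878 CPM with a median of 3729 CPM, against 5237 to 6529 CPM with a median of 5629 CPM in low backfat females. The log2 fold change was -0.73 ± 0.25 (SE, n = 4 and 5), with an adjusted p of 0.281 by edgeR, and 0% of miRNAs were called in that contrast. High backfat females averaged 240 days of age (235 to 250) and low backfat females 246 days (243 to 249). With age added to the fit of both sexes, the log2 fold change of class was -0.38, with an adjusted p of 0.225 by edgeR. The part of age in the female difference was not tested. In castrated males, high backfat libraries had 3840 to 5976 CPM and low backfat libraries 3426 to 6047 CPM. The log2 fold change there was -0.20 ± 0.25 (SE, n = 5 and 4), with an adjusted p of 0.612, where 4.07% of miRNAs were called. The difference between the sexes, castrated males minus females, was 0.54 ± 0.35 (SE) with an adjusted p of 0.686 by edgeR, so it was not shown that the class difference depends on sex.

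By sex, levels averaged 4728 ± 1007 CPM in castrated males and 4735 ± 1540 CPM in females (SD, n = 9 each). The log2 fold change was 0.09 ± 0.18 (SE), with an adjusted p of 0.907 by edgeR. In that comparison 0% of miRNAs were called, and 17 of 221 had an unadjusted p under 0.05.

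The annotated sequence was a minor form. It made up 6.32% ± 0.26 of miR-101 counts (SD, n = 18), ranging from 5.97% to 6.76%, and ranked 155 of the 174 miRNAs with a mean of at least 10 CPM by the share of the exact sequence. Most counts carried other ends. The form ending in CT alone made up 25.9% ± 2.35, the form with an added U 12.2% ± 0.88 and the form ending in CC 9.09% ± 1.29 (SD, n = 18). The form 1 base longer made up 7.26% ± 0.64, and the most abundant upstream start 7.18% ± 0.97.

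Grouped by class, other added bases made up 37.8% ± 2.68 of counts, shifted 5' ends 20.3% ± 2.38, added U 15.1% ± 1.07, longer 3' ends 8.86% ± 0.75, shorter 3' ends 6.72% ± 0.58 and added A 3.50% ± 0.26 (SD, n = 18). Internal mismatches ran from 0.294% to 2.42%. Added bases were at most 3 after a start of at least 16 matching bases. A 23-base form with 29303 counts matched mir-101-1 alone, but its last A cannot be told apart from an added A.

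Forms with 2 mismatches took a larger part of miR-101 than of the 173 other miRNAs compared. The share of miR-101 counts in the table's category of 2 mismatches was 36.5% ± 2.55 (SD, n = 18), the highest of 174 miRNAs on average and first in 17 of 18 libraries. miR-152 followed with 29.7% ± 4.15 and the median over the miRNAs was 0.201%. Ends of CT or CC after the matching bases made up 35.3% of miR-101 counts, first in all 18 libraries, against 9.28% in miR-331-3p, the next miRNA. The table cannot tell an added base, an edit, a sequencing error and another locus apart.

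These ends went with 1 start. CT or CC made up 43.8% ± 2.54 of the counts that began at the annotated base (39.8% to 46.8%), but 0.519% ± 0.053 of those that began 1 base upstream (0.450% to 0.654%; SD, n = 18 for both), and the ranges were far apart in these libraries. Counts that began 1 base upstream matched the hairpins throughout in 83.0%, against 27.4% of those with the annotated start. Their mean length was 20.9 bases, against 21.7 bases. CT and CC forms, whose matching bases also stop short of the annotated end, were left out of the next shares. Matching ends short of the annotated one made up 64.6% ± 2.87 of upstream starts and 8.43% ± 0.72 of annotated starts. The U-extended forms showed the opposite pattern, with 3.53% ± 0.33 of the upstream starts and 18.9% ± 1.36 of the annotated starts.

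**Figure D2:**
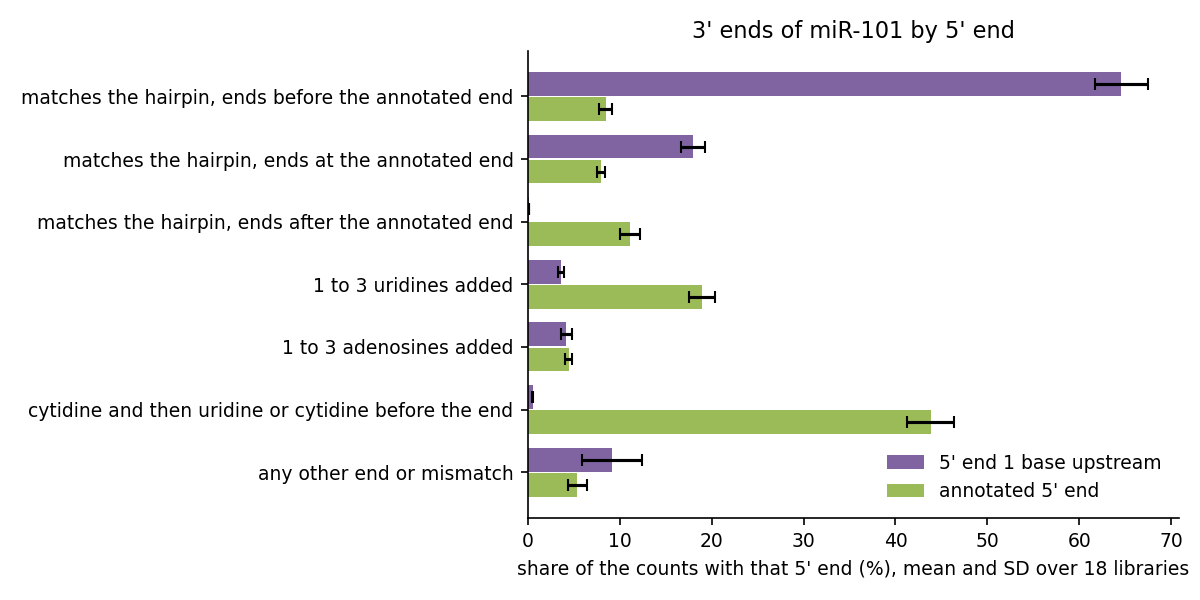
Share of counts (%) with each kind of 3' end among miR-101 counts that begin 1 base upstream of the annotated 5' end and among those that begin at it, with bars for the mean and lines for the SD over 18 libraries. Upstream starts mostly match the hairpins and end before the annotated end (64.6%). The largest group of annotated starts carries a cytidine and then a uridine or cytidine (43.8%).

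The upstream start is the form that changes the seed. It accounted for 373901 counts in 147 forms, against 1490091 counts in 186 forms with the annotated start, while starts at 3 other bases held 24, 1307 and 540 counts. Among the 174 miRNAs the share of shifted 5' ends in miR-101 ranked 20, with a median of 0.340% over the miRNAs.

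Shifted 5' ends took a larger share of miR-101 in high backfat. The 9 high backfat libraries had 20.6%, 23.0%, 19.8%, 25.5%, 21.5%, 20.6%, 21.2%, 24.0% and 19.8%, against 18.4%, 20.6%, 20.7%, 20.5%, 17.8%, 17.1%, 15.5%, 19.3% and 19.1% in the 9 low backfat libraries, replicates 1 to 9 each. All 9 high values exceeded the low median, and 5 exceeded every low value. Means were 21.8% ± 1.97 in high and 18.8% ± 1.75 in low backfat (SD, n = 9 each), a difference of 3.00 percentage points. The two-sided exact permutation test over 48620 splits gave p = 0.00243, adjusted over 8 form classes to 0.0194.

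The shifted class was the only one of the 8 to pass. Among the others, other added bases averaged 36.7% ± 2.33 in high and 38.9% ± 2.63 in low backfat, and added U 14.6% ± 1.05 in high and 15.5% ± 0.96 in low backfat (SD, n = 9 each), both with an adjusted p of 0.225 by the exact permutation test. Castrated males and females had shifted shares of 20.2% ± 2.22 and 20.4% ± 2.65 (SD, n = 9 each), and no class differed by sex, with a lowest adjusted p of 0.781 by the exact permutation test.

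**Figure D3:**
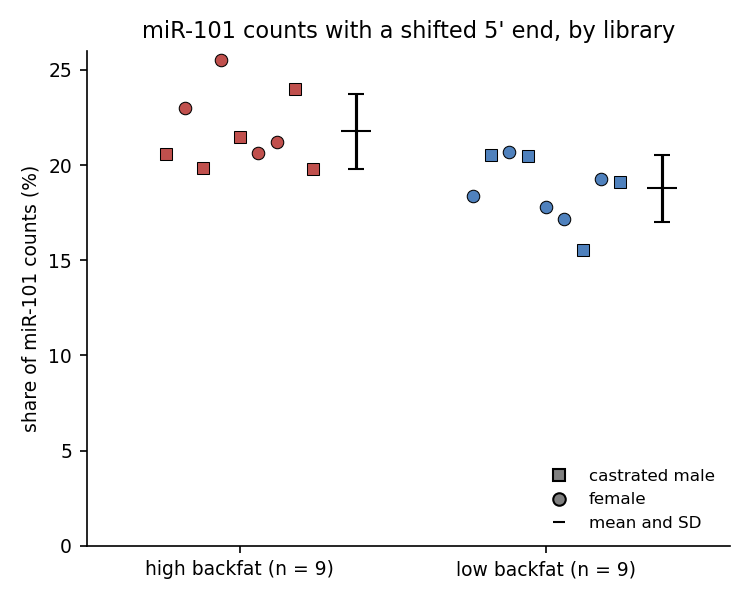
Share of miR-101 counts (%) with a shifted 5' end in each library, by backfat class, with squares for castrated males, circles for females, and bars for the mean and SD. The 9 high backfat libraries range from 19.8% to 25.5% and the 9 low backfat libraries from 15.5% to 20.7%.

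**Figure D4:**
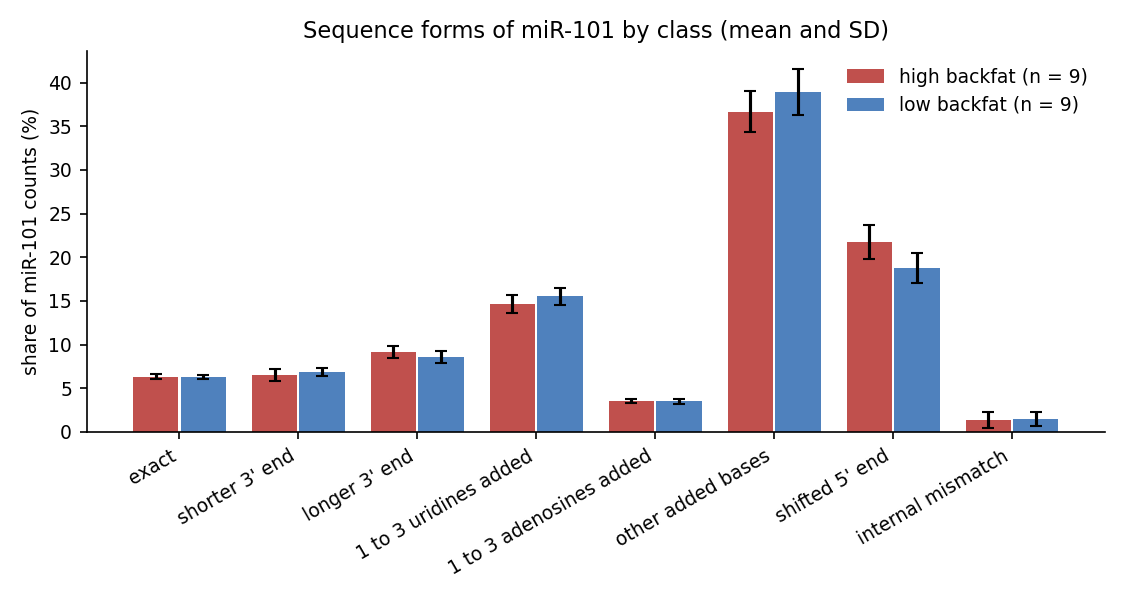
Share of miR-101 counts (%) in each of 8 form classes, as the mean with SD over 9 high and 9 low backfat libraries. Only the shifted 5' end class passed the test, at 21.8% in high and 18.8% in low backfat.

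The same share was set against other miRNAs. Of 78 miRNAs with a mean shifted share of at least 1%, 13 had an unadjusted exact permutation p under 0.05, which is 16.7%. Of these, 8 were higher in high backfat, or 10.3%, and 0% of the 78 were called after adjustment over the 78, where miR-101 had an adjusted p of 0.0631. The pooled shifted share of all other miRNAs was 5.87% ± 0.54 in high and 5.85% ± 0.22 in low backfat (SD, n = 9 each).

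The direction was the same in every run of library codes. The high-minus-low difference was 1.79 percentage points in AC485-AC488, 2.07 in U074-U077, 4.36 in U134-U139 and 2.32 in U966-U969. Without the 4 libraries AC485 to AC488, 3 of which had low backfat, the difference was 2.85 points but its adjusted p was 0.12 by the exact permutation test. In females alone it was 3.92 points (exact permutation p = 0.0238, n = 4 and 5) and in castrated males alone 2.20 points (exact permutation p = 0.159, n = 5 and 4), and the difference between the sexes was not tested.

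Mean length of miR-101 reads was 21.53 ± 0.034 bases in high and 21.54 ± 0.025 bases in low backfat (exact permutation p = 0.556, n = 9 each, SD). That of all other sequences was 21.85 ± 0.063 bases in high and 21.81 ± 0.020 bases in low backfat (exact permutation p = 0.157). Among reads of 22 bases, the length of 64.9% of miR-101 counts, shifted ends made up 8.38% ± 0.86 in high and 6.50% ± 0.76 in low backfat (SD, n = 9 each), and 8 of 9 high values exceeded every low value. The exact permutation p was 8.23e-05, and 0.000411 after adjustment over 5 lengths. Reads of 20, 21 and 23 bases gave differences of 5.27, 3.29 and 4.38 points with adjusted p of 0.00422, 0.0402 and 0.0061 by the same exact test, and reads of 19 bases 1.59 points with an adjusted p of 0.439. The comparison by length was chosen after the values were seen.

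In CPM, both starts averaged lower in high backfat, and the annotated start by more. Annotated starts had 3137 ± 976 CPM in high and 4443 ± 768 CPM in low backfat, and upstream starts 863 ± 235 CPM in high and 1010 ± 131 CPM in low backfat (SD, n = 9 each). The high-minus-low difference of mean log2 CPM was -0.56 for annotated and -0.29 for upstream starts.

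Single forms were then tested among 7859 forms of all miRNAs. Of miR-101's 354 forms, 94 passed the filter on low counts and 0 were called by edgeR, where 0% of all forms were called. At an unadjusted p under 0.05 there were 16 of the 94, or 17.0%, against 6.54% of all forms. Forms of a single miRNA in the same libraries share its level, so the 94 are not independent and these shares are descriptive only. Of the 94, 85 were lower in high backfat, against 3965 of all 7859 forms. Their median log2 fold change was -0.39 against -0.0063 over all forms. DESeq2 called 6 of miR-101's forms and 192 of all forms.

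Among the abundant forms, the CT form had 985 ± 286 CPM in high and 1463 ± 231 CPM in low backfat (SD, n = 9 each). Its log2 fold change was -0.58 ± 0.18 (SE), with an adjusted p of 0.345 by edgeR. The added-U form had 471 ± 111 CPM in high and 676 ± 113 CPM in low backfat, with a log2 fold change of -0.52 ± 0.16 (SE) and an adjusted p of 0.344 by edgeR. The annotated form had 253 ± 62.7 CPM in high and 338 ± 53.1 CPM in low backfat, with a log2 fold change of -0.42 ± 0.16 (SE). The most abundant upstream start had 304 ± 81.5 CPM in high and 360 ± 60.6 CPM in low backfat, with a log2 fold change of -0.24 ± 0.17 (SE).

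CT and CC did not keep one ratio. There were 2.65 ± 0.47 CT counts per CC count in high and 3.15 ± 0.31 in low backfat (SD, n = 9 each), with ranges of 2.12 to 3.38 and 2.57 to 3.56 that overlapped. The exact permutation p was 0.0213, adjusted over 2 measures chosen after the values were seen to 0.0425. Within runs the high-minus-low difference was 0.17 in AC485-AC488, -0.67 in U074-U077, -0.80 in U134-U139 and -0.11 in U966-U969. The other measure, the share of CT or CC among annotated starts, was 43.3% ± 2.55 in high and 44.3% ± 2.57 in low backfat (exact permutation p = 0.399, n = 9 each).

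Libraries with more miR-101 had a smaller share of shifted starts. Over 18 libraries, log2 CPM and that share had a Spearman rho of -0.82 (permutation p = 6.00e-05, adjusted over 3 relations 0.00018) and a Pearson r of -0.50 (permutation p = 0.0412, adjusted 0.124). Without high replicate 6 and low replicate 2, farthest from the median level, r was -0.86. Centred on backfat class, r was -0.25 over all 18, and it was -0.10 within high and -0.63 within low backfat libraries. Centred on run, r was -0.46. Both measures come from the same counts. The share of CT or CC among annotated starts had a Spearman rho of 0.44 with level (permutation p = 0.0713, adjusted 0.0713) and a Pearson r of 0.18 (permutation p = 0.501, adjusted 0.501). With the shifted share it had a Spearman rho of -0.53 (permutation p = 0.0254, adjusted 0.0381) and a Pearson r of -0.40 (permutation p = 0.0997, adjusted 0.15). That r was -0.38 without the 2 libraries farthest from the median shifted share, high replicate 4 and low replicate 7, and -0.25 when centred on run.

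**Figure D5:**
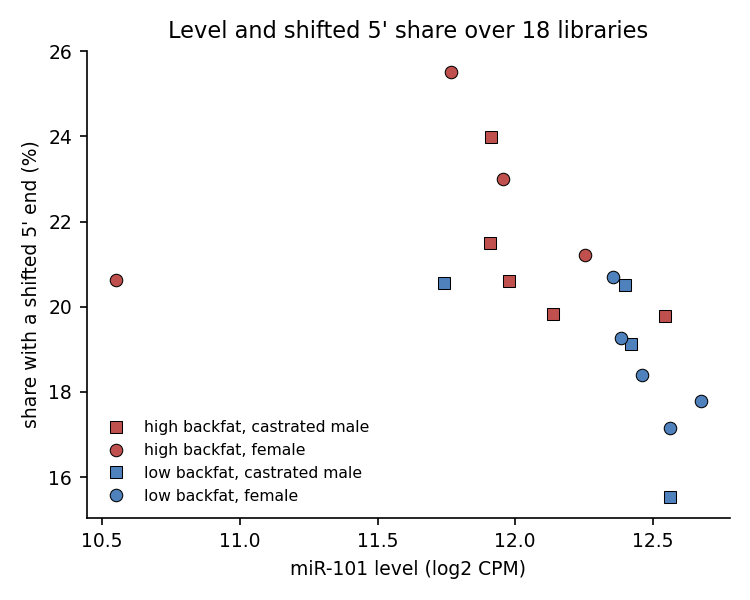
Share of miR-101 counts (%) with a shifted 5' end against miR-101 level in log2 CPM in 18 libraries, coloured by backfat class, with squares for castrated males and circles for females. Libraries with higher levels have lower shares, with high replicate 6 far to the left of the other libraries at 20.6%.

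The miRNAs most like miR-101 over the 18 libraries, out of 174 compared in log2 CPM, were miR-545-5p with r = 0.92, miR-152 with 0.88, miR-374a-5p with 0.88, miR-374a-3p with 0.83 and miR-190a with 0.81. Without the 2 libraries farthest from the median of miR-101, these were 0.71, 0.68, 0.63, 0.49 and 0.44, so part of each rested on those libraries. The least like were miR-615 with r = -0.84, miR-1343 with -0.83 and miR-30c-5p with -0.79, and -0.83, -0.74 and -0.74 without the 2 libraries. These values describe libraries that share depth and composition.

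Other miRNAs known, mostly from human cells, to target EZH2 were taken from a list of 14 names besides miR-101, of which 9 were analysed here and 7 passed the filter on low counts. Of the 7, 1 was called lower and 0 higher in high backfat, where 3.62% of miRNAs were called. A negative log2 fold change was seen in 5 of the 7, against 118 of all 221 miRNAs. The median was -0.15 over the 7 against -0.03 over the 221. let-7c was the one called, with 10583 ± 365 CPM in high and 12935 ± 1423 CPM in low backfat (SD, n = 9 each). Its log2 fold change was -0.28 ± 0.07 (SE), with an adjusted p of 0.0486 by edgeR. let-7a had 20502 ± 2460 CPM in high and 20096 ± 2551 CPM in low backfat and miR-30d 9547 ± 1216 CPM in high and 8388 ± 1200 CPM in low backfat (SD, n = 9 each), and let-7c, let-7a and miR-30d were the 3 of the 7 with a higher mean level than miR-101. miR-98, miR-214, miR-144 and miR-138 averaged between 1.68 and 1819 CPM over the libraries.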

How the data were processed

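Small RNA of 18 pig backfat samples was sequenced, per the labels' protocols. The authors deposited raw counts per sequence variant and a normalised signal, which equals the count divided by 1 size factor per library (0.464 to 1.93). The tools were Bowtie 0.12.7, HTSeq and DESeq2 1.4.5 and the build Sscrofa10.2, per the submitters' processing notes, and sources used here state no trimming or mismatch settings. The 2 value columns that match no sample were not used. No count of miR-101 lay between 1 and 4 in the deposited table. Variants were summed per mature miRNA, each sequence once. Fits used R 4.3.3, edgeR 4.0.16 (filterByExpr with a minimum count of 10, TMM, sex as covariate, Benjamini-Hochberg adjustment, threshold 0.05), DESeq2 1.42.0 and limma 3.58.1, tested on simulated data. Shares and figures used Python 3.11.15, SciPy 1.17.1, Matplotlib 3.10.9, NumPy 2.4.6 and pandas 2.3.3. CPM is per 1000000 counts, with a prior count of 2 on the log2 scale. Correlations used 100000 permutations. Named forms were the 6 most abundant and the most abundant of each class, and likeness used the 5 highest and 3 lowest r among miRNAs with a mean of at least 10 CPM. Members and lists were chosen with earlier results of these data known.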

Additional observations from a re-analysis of the deposited data

Results flagged for a closer look

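In low backfat, 1 library lay apart in its miR-101 level. Replicate 2, a castrated male, had 3426 CPM, while the other 8 low backfat libraries had 5237 to 6529 CPM, so that the gap to the nearest library was 0.584 of the group's range. Without it the log2 fold change of high against low backfat was -0.55. This was 1 of 22 groups of values examined, and chance flags about 1 in 20.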

How the results depend on the processing

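The level of miR-101 was lower in high backfat under all 29 alternatives run, with log2 fold changes from -0.55 to -0.32 and adjusted p from 0.0639 to 0.314, and it was called under none of them. The number of all miRNAs called varied from 0 to 22. Leaving out each library in turn gave log2 fold changes from -0.55 to -0.32 for class, -0.038 to 0.19 for castration, -0.33 to -0.10 in castrated males, -0.95 to -0.47 in females and 0.28 to 0.76 for their difference. Castrated males against females gave -0.0020 with no class term. DESeq2 called 192 forms of all miRNAs, and 6 of miR-101's, among them the CT (-0.56), added-U (-0.50) and 20-base (-0.55) forms. Each other alternative called 0 of miR-101's forms. The shifted share passed with each library left out (2.53 to 3.25 points) and when centred on run (2.56 points, adjusted p = 0.0471). Without libraries AC485 to AC488, 0 classes passed and the shifted share differed by 2.85 points. It differed by 1.59 points in 19-base reads and by 2.20 points in castrated males, neither past the threshold. Among forms that match the hairpins throughout, the shifted share was 44.7% in high and 41.6% in low backfat (unadjusted exact permutation p = 0.0446). There, 3 high values exceeded every low value. Without CT or CC forms the shifted share was 32.8% in high and 29.2% in low backfat (unadjusted exact permutation p = 0.00037), and 6 high values exceeded every low value. Small differences changed sign without AC485 to AC488: the exact form to -0.00211, added A to -0.0336, internal mismatch to 0.251 and the shifted share by sex to 0.612 points. Centred on run, added A was -0.0328, internal mismatch 0.156 and the shifted share by sex 0.183 points. Leaving out each library gave ranges of -0.0177 to 0.101 for added A, -0.198 to 0.0677 for internal mismatch and -0.727 to 0.389 for the shifted share by sex. The cause was not tested. The alternatives by read length, by sex, by run centring, with matching forms only and without CT or CC forms were chosen after seeing the data. The relation of miR-26a with miR-101 was not run, since miR-26a was not analysed here. No paired analysis was possible because the labels give no number shared between animals of the 2 classes.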
